A study of Mus musculus with 7 samples.

Results

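The NK and T lymphocytes of the wild-type (WT) pancreas were taken as the cells that the authors' annotation places in a cluster whose name begins with NK (NKs_Tcells). The cluster held 72 of the 4327 cells of WT 1 and 121 of the 6326 cells of WT 2, out of 10653 WT cells in all, and is called NK/T here. The whole series held 58473 annotated cells. Single-cell RNA was captured in droplets from dissociated pancreas, with 1 mouse in each library. Both WT mice were C57BL/6, 2 months old and of wild-type genotype, and they drank doxycycline at 1 mg/ml with 7.5% sucrose for 7 days. The 3 i4F mice (genotype i4F-B) shared strain, age and doxycycline treatment and carry a doxycycline-inducible transgene of the Yamanaka reprogramming factors. Mice given caerulein were not compared, because none of their cells carried a cluster name beginning with NK. The other WT immune cells, 618 in macrophage clusters and 158 in B cell clusters, served as the reference.

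NK cells are innate lymphocytes that kill target cells with perforin and granzymes and secrete interferon gamma and chemokines. T cells carry a rearranged receptor of alpha and beta or of gamma and delta chains, signalling through the CD3 complex. Group 2 innate lymphoid cells (ILC2) lack such a receptor, depend on the transcription factor GATA3 and secrete type 2 cytokines. In tissues, all of these can be long-term residents that differ from the circulating pool.

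The NK/T cells of WT 1 held 182693 UMIs (unique molecular identifiers, each standing for 1 captured RNA molecule) and those of WT 2 held 233648. Their median depth was 2247.5 UMIs per cell in WT 1 and 1667 in WT 2. The i4F NK/T cells were shallower, with medians of 759.5 to 1186 UMIs, and had a higher median share of ribosomal protein UMIs, 23.7 to 29.6% against 18.2 and 21.5% in WT. The WT libraries shared 9 cell barcodes, none of them between NK/T cells. Levels are given as CPM, the UMIs of a gene scaled in the usual way to the total UMIs of the cells summed in a mouse. The name of the WT 2 library belongs to a different series from those of WT 1 and the i4F mice, and what that series stands for was not given in the sources used here.

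The annotation was first checked against marker genes. Ncr1, which encodes the NK receptor NKp46, gave 43 UMIs in WT 1 and 39 in WT 2, and no UMI in the macrophage and B cell clusters of either mouse. Klrb1c, the gene of the NK1.1 antigen, gave 42 and 26 UMIs, likewise with none in the reference. Both NK genes were thus found in NK/T cells of both mice at a level at least 68.0-fold (WT 1) and 105-fold (WT 2) above the floor for Ncr1, and 66.4-fold and 70.3-fold for Klrb1c, with the floor set at 3 UMIs of the reference in each mouse. Gzma, which encodes granzyme A, gave 423 and 220 UMIs, at least 669-fold and 595-fold above that floor. Cd3e, a subunit of the T cell receptor complex, gave 41 and 55 UMIs, at least 64.8-fold and 149-fold above it. Gata3, the transcription factor of ILC2 and of type 2 T cells, gave 53 and 46 UMIs, with 0 and 6 in the reference. These are descriptions without a test, since the cells were clustered by the authors on the same genes.

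The markers were spread over different cells. In both mice together, 122 NK/T cells (63.2%, exact 95% interval 56.0 to 70.0) had a UMI of the CD3 complex (Cd3d, Cd3e or Cd3g), 62.5% in WT 1 and 63.6% in WT 2. A UMI of an NK receptor gene (Ncr1, Klrb1c or Klre1) was found in 50 cells (25.9%, interval 19.9 to 32.7), 34.7% in WT 1 and 20.7% in WT 2. An ILC2 gene (Gata3, Il1rl1, Il13, Il5 or Calca) had a UMI in 48 cells (24.9%, interval 18.9 to 31.6), 30.6% and 21.5%. CD3 and NK receptor UMIs met in 14 cells and CD3 and ILC2 UMIs in 19, and 8 cells had none of the 3. Of the 158 B cells, 3 had a CD3 UMI and none had one of the other genes (exact 95% upper bound 2.31%) at a median of 2245 UMIs per cell. Of the 618 macrophage cluster cells, 1 had a CD3 UMI, 4 an NK receptor UMI and 22 an ILC2 gene UMI, at a median of 2508.5 UMIs. The cluster name covers NK and T cells, and genes of ILC2 were found in it as well. All intervals and floors cover counting error only.

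**Figure D1:**
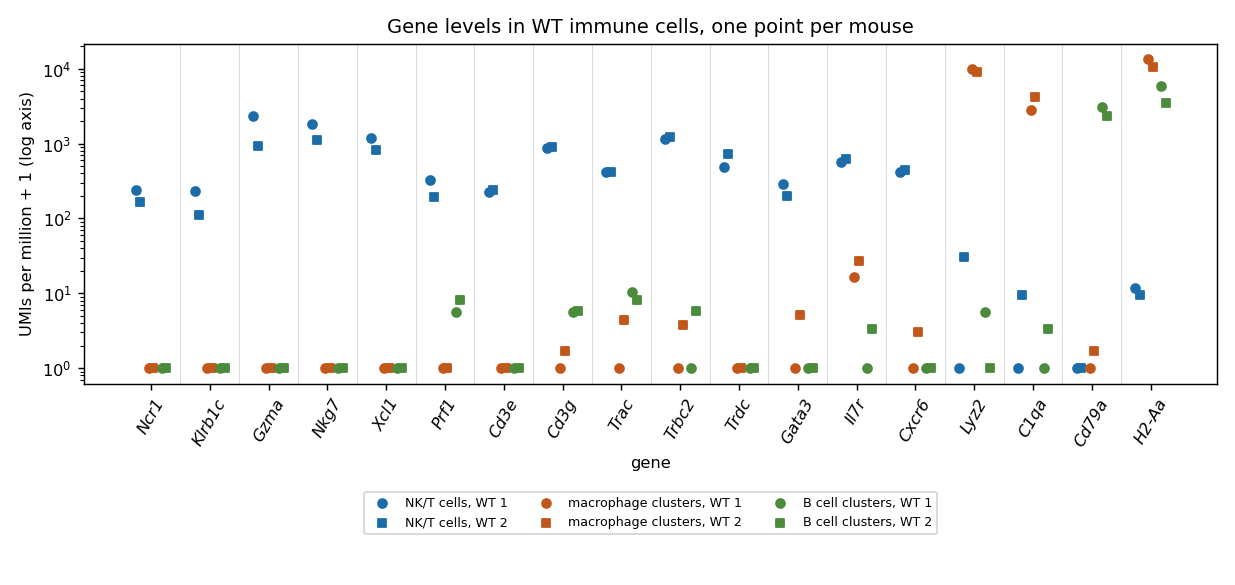
Levels of 18 genes in WT immune cells, in CPM plus 1 on a log axis, with 1 point per mouse (circles WT 1, squares WT 2) for NK/T cells, macrophage clusters and B cell clusters. Ncr1, Klrb1c, Gzma, Nkg7, Xcl1, Cd3e and Trdc lie at the bottom of the axis in macrophage and B cell clusters of both mice, and Lyz2, Cd79a and H2-Aa are low or at 0 in NK/T cells.

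The stretches of 200 bases before the RefSeq start of the 3 markers that marked NK-like cells (described next) are shown because these genes were high in the same cells. Coordinates are those of GRCm38.p6. Capitals mark matches, on either strand, to short core motifs of lymphocyte regulators. The letters searched were TGTGGT for RUNX factors. For T-box factors such as T-bet and Eomes they were AGGTGT. For the large family of ETS factors they were GGAAGT. For GATA factors such as GATA3 they were AGATAA, and no motif overlaps another in these stretches. Ncr1 lies on chromosome 7 (+ strand, chr7:4337715-4345184) and its stretch is chr7:4337515-4337714, outside any other annotated gene. Gzma lies on chromosome 13 (- strand, chr13:113093824-113100981), with the stretch chr13:113100982-113101181, also outside any annotated gene. Klrb1c lies on chromosome 6 (- strand, chr6:128778485-128788641), and its stretch chr6:128788642-128788841 falls in an intron of a longer Klrb1c transcript and inside the predicted gene Gm44511.
Ncr1: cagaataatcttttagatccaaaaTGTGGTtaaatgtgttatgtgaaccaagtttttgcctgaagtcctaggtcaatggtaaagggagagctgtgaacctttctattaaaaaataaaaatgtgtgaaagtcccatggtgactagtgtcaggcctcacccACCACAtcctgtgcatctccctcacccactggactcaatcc
Klrb1c: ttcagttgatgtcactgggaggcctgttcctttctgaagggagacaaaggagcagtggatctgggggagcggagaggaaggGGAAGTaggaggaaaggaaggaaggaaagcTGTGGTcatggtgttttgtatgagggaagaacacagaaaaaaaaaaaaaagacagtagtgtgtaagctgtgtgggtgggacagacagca
Gzma: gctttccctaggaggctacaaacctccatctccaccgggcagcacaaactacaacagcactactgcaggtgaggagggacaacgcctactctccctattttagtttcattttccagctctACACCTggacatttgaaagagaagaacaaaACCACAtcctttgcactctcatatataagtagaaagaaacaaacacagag
RUNX letters stood in each of the 3 stretches, at 176 to 171 and 41 to 36 bases before the start of Ncr1, 89 to 84 bases before Klrb1c and 50 to 45 bases before Gzma. Klrb1c also held the ETS letters and Gzma the T-box letters, and the GATA letters were in none of them. Over the stretches of the same length of 27025 RefSeq genes, the shares with a match were 11.3% for RUNX, 9.43% for T-box, 16.9% for ETS and 7.98% for GATA. A match describes letters only and is not a binding site.

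Clustered on their own, the NK/T cells fell into 4 sub-clusters, each with cells of both mice. The T cell-like sub-cluster held 86 cells (44.6%; 31 in WT 1 and 55 in WT 2) and the NK-like one 42 (21.8%; 19 and 23). The gamma-delta T-like sub-cluster held 33 cells (17.1%; 9 and 24) and the ILC2-like one 32 (16.6%; 13 and 19). Their median depths were alike, from 1785 to 2119 UMIs per cell. At a lower resolution the T cell-like and gamma-delta T-like cells joined in 1 cluster of 124 cells that held all 86 and all 33 of them, and at a higher resolution or with another normalization 4 clusters were found again. The genes below describe sub-clusters that were drawn from the same genes, so that no test applies.

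The NK-like cells carried the receptors and the killing machinery. Of the 82 Ncr1 UMIs of the NK/T cells, 81 lay in the NK-like sub-cluster, where 71.4% of cells had one. The Ly49 receptor genes Klra8 and Klra4 had 89 and 97 UMIs in NK-like cells and none in the other sub-clusters, although near-identical Klra copies could share reads and the split among them is uncertain. Tyrobp, an adaptor of activating receptors, had a UMI in 97.6% of NK-like and 4.65% of T cell-like cells. Gzma had 630 UMIs in NK-like cells and 13 in T cell-like cells, and Prf1, which encodes perforin, had 98 against 6. Gzmb, which encodes granzyme B, had 91 UMIs in NK-like cells and 11 in gamma-delta T-like cells, the latter in 2 cells. Of the CD3 genes, Cd3e had no UMI in the 42 NK-like cells, while Cd3g had 23 UMIs in 5 of them and Cd3d 4 UMIs in 2.

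Secreted factors followed the same division with some sharing. Xcl1, a chemokine that attracts cross-presenting dendritic cells, had 324 UMIs in NK-like and 85 in T cell-like cells, and none elsewhere. Ifng, which encodes interferon gamma, had 119 UMIs in NK-like and 38 in T cell-like cells, and none in gamma-delta T-like or ILC2-like cells. Ccl5 was in all 42 NK-like cells (1316 UMIs) and in 45.3% of T cell-like cells (848 UMIs). Ccl4 was nearly confined to NK-like cells, with 652 of its 689 UMIs. Nkg7, a granule protein of cytotoxic cells, had a UMI in 100% of NK-like and 53.5% of T cell-like cells, against 6.06% of gamma-delta T-like cells.

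The gene with the highest ratio in the T cell-like sub-cluster was Gsn, a gene of stellate cells and fibroblasts, with a UMI in 11.6% of its cells, and Dcn, another such gene (10.5%), was in its top 10 as well. Trac, the constant gene of the receptor alpha chain, came next after Gsn and was found in 73.3% of them against 4.76% of NK-like cells. Ccr7, the homing receptor for lymph nodes, had 64 of its 66 UMIs there, in 24.4% of the cells. Cd8b1 had all of its 33 UMIs and Cd4 all of its 15 UMIs in this sub-cluster. Over all NK/T cells, 11 had a Cd4 UMI, 14 a Cd8a or Cd8b1 UMI and none had both. Foxp3, the factor that defines regulatory T cells, had a UMI in 3 cells.

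The gamma-delta T-like cells led with Trdc, the constant gene of the receptor delta chain, with 230 of its 257 UMIs (75.8% of these cells). Tcrg-C1 had 41 UMIs there, and 14 in the ILC2-like cells. Cd163l1 (42 UMIs) and Blk (18 UMIs) were found in this sub-cluster and in no other. The 4 UMIs of Il17a, which encodes interleukin 17A, were there. Trac UMIs were found in 27.3% of these cells, all of them in WT 2. The beta chain constant genes Trbc2 and Trbc1 had UMIs in 75.8% and 33.3% of them. Trbc2 was found there in both mice, with 16 UMIs in WT 1 and 54 in WT 2. Cxcr6, a chemokine receptor of resident lymphocytes, was present in 90.9% of gamma-delta T-like and 62.5% of ILC2-like cells, against 11.9% of NK-like cells. It was in 18.6% of T cell-like cells. Il7r, the receptor of interleukin 7, was in 87.9% of gamma-delta T-like, 75.0% of ILC2-like, 41.9% of T cell-like and 9.52% of NK-like cells.

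The ILC2-like cells held 81 of the 99 Gata3 UMIs. The receptor of interleukin 33, Il1rl1, had 35 UMIs there and 4 in T cell-like cells. The type 2 cytokine genes Il13 and Il5 had 70 and 37 UMIs in ILC2-like cells, and 10 and 3 in 1 T cell-like cell each. Csf2, which encodes GM-CSF, had 69 of its 72 UMIs in ILC2-like cells, and Areg, which encodes the tissue repair factor amphiregulin, 93 of its 129. Calca, the gene of calcitonin and CGRP, had 75 of its 85 UMIs in 10 ILC2-like cells. Hs3st1, a heparan sulfate sulfotransferase, had 72 UMIs among the NK/T cells, all in ILC2-like cells. The WT B cell clusters had Hs3st1 as well, at 134 CPM in WT 1 and 107 CPM in WT 2. Arg1, which encodes arginase 1, had 61 of its 62 UMIs there. The CD3 complex was not absent from these cells, since Cd3g had a UMI in 18.8% of them, while Cd3e and Cd3d had none. Trbc2, the constant gene of the receptor beta chain, had a UMI in 62.5% of ILC2-like cells and Trbc1 in 69.0% of NK-like cells.

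**Figure D2:**
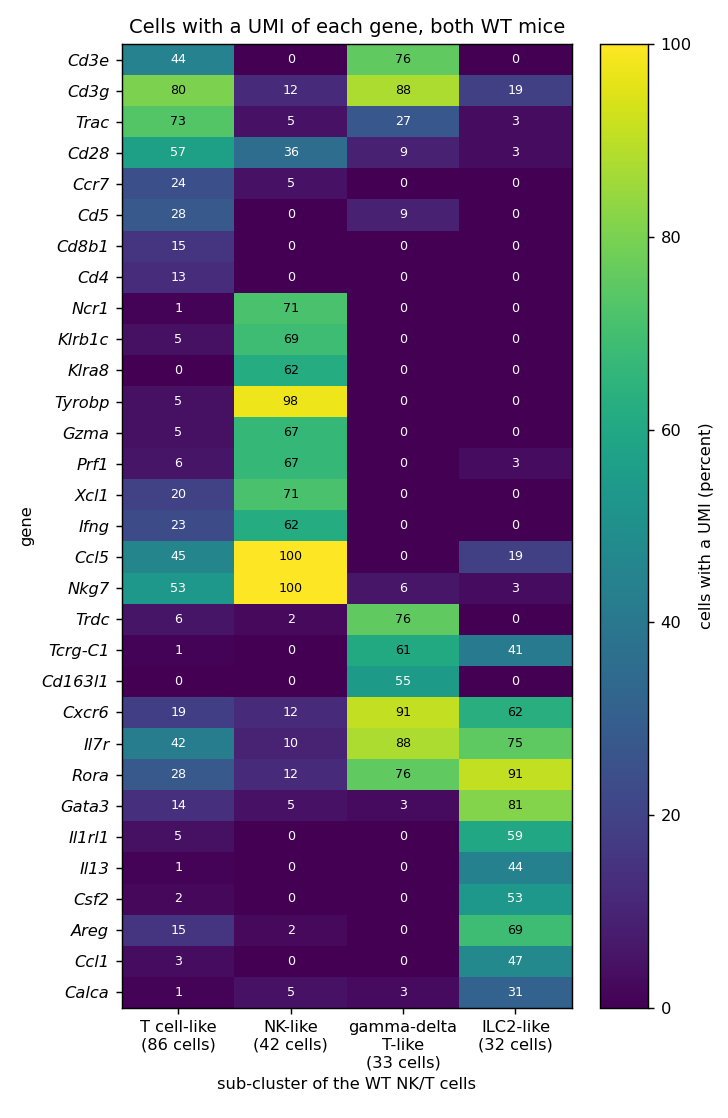
Percent of cells with at least 1 UMI of 31 genes (rows) in the 4 sub-clusters of the WT NK/T cells (columns, cells of both mice pooled), from dark (0) to yellow (100). NK receptor and cytotoxic genes peak in the second column (Ncr1 71, Gzma 67, Tyrobp 98), Trdc and Cd163l1 in the third, and Gata3, Il13, Csf2 and Ccl1 in the fourth, while Cxcr6 and Il7r are high in both of the last columns.

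Against the other immune cells, NK/T cells were set apart gene by gene. A gene was counted where its level differed at least 2-fold in the same direction in both mice after adding 10 CPM. Of 10951 genes with at least 10 UMIs over these cells, 598 (5.46%) were higher in NK/T cells and 608 (5.55%) lower. The 10 genes that stood out most were Nkg7, Gzma, Trbc2, Xcl1, Cd3g, Cd3d, Trbc1, Trdc, Cxcr6 and Ctsw. The 5 lowest were the immunoglobulin gene Igkc, the MHC class II genes H2-Aa, H2-Eb1 and Cd74, and Il1b. The direction of Igkc depended on the B cells in the reference, and its mean log2 ratio turned to 0.81 when macrophages alone were the reference. The counts depended on the amount added, with 1150 higher and 1366 lower at 1 CPM and 222 and 245 at 50 CPM.

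The lists of lineage genes are given as a description. Their counts stand beside the shares over all genes compared, 5.46% higher and 5.55% lower. Many of their members had no UMI in the reference (11 NK cell, 9 gamma-delta T cell, 5 ILC2, 3 T cell genes and 1 regulatory T cell gene). These could pass the filter only through the NK/T cells, where they had to be higher. Of the 24 measured NK cell genes, 23 passed the filter and 20 were higher, and of 21 T cell genes 20 were higher. Of 9 gamma-delta T cell genes that passed 8 were higher, of 16 ILC2 genes 14 and of 6 regulatory T cell genes all 6. The NK gene that was lower was Tyrobp, with 536 and 749 CPM in NK/T cells against 1214 and 1573 CPM in the reference. Myeloid cells are known to use this adaptor too. Among T cell genes Ccr7 was not higher, with 153 and 163 CPM against 292 and 291 CPM. None of the 10 macrophage genes was higher and all 10 were lower, with summed levels of 10.9 and 68.5 CPM against 20653 and 22794 CPM in the macrophage clusters. The reference was made of macrophage and B cell clusters, so that lists of such cells were bound to lean lower. Of the macrophage, dendritic cell and B cell lists, 4, 6 and 6 genes had no UMI in NK/T cells and could pass only through the reference. Cd79a and Ms4a1, which mark B cells, had no UMI in NK/T cells, nor did the neutrophil genes S100a8 and S100a9. Of the 10 dendritic cell genes 5 were lower and none higher, of 10 B cell genes 9 were lower, and the mast cell and basophil list had 1 gene that passed the filter, called in neither direction. Of 5 measured acinar genes, 1 was higher.

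The cytotoxic genes followed only in part, and several members of the list are known to serve secretion in many leukocytes. Of the listed genes, 5 had no UMI in the reference, with the same limit as for the lineage lists. Of 16 genes that passed, 9 were higher, among them Prf1 (60 and 45 UMIs), Gzmb (328 and 188 CPM), Ctsw (564 and 424 CPM) and Fasl (148 and 64.2 CPM), the ligand of the death receptor Fas. The lysosomal genes Lamp1 and Ctsc were lower, Ctsc with 65.7 and 51.4 CPM against 578 and 651 CPM in the reference. Gzmk had 3 and 2 UMIs, below or at the floor, and Gzmm 1 and 8. Among receptors 10 of 15 were higher and 2 lower, against 5.46% and 5.55% of all genes. Of the listed receptors 3 had no UMI in the reference, again with the same limit. Klrk1, the gene of the activating receptor NKG2D, had 509 and 295 CPM against 48.5 and 21.1 CPM. Cd226, the gene of DNAM-1, had 87.6 and 59.9 CPM against 5.77 and 7.92 CPM. Itgal, the gene of the LFA-1 alpha chain, had 175 and 103 CPM against 39.2 and 16.4 CPM. Of the inhibitory receptors Pdcd1 had 22 and 32 UMIs, while Tigit, Lag3 and Havcr2 had between 0 and 2 UMIs in each mouse. Over both mice, Ctla4 had 50 UMIs in T cell-like, 6 in gamma-delta T-like and 3 in NK-like cells. Klrc1, the gene of NKG2A, had 22 UMIs in NK-like and 6 in T cell-like cells.

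Of 16 chemokine and receptor genes 8 were higher and 5 lower than in the reference of macrophage and B cell clusters, against 5.46% and 5.55% of all genes. Of the listed genes 3 had no UMI in the reference and could pass the filter only through the NK/T cells. Ccl5 reached 5249 and 5213 CPM against 121 and 452 CPM. Ccl4 showed the opposite order, with 1511 and 1768 CPM against 7270 and 8545 CPM. The receptors Cxcr6, Cxcr3, Ccr2 and Ccr8 were higher, Ccr2 by 2.66-fold and 2.90-fold. Of the listed cytokines 7 had no UMI in the reference and could pass only through the NK/T cells, and of the 13 that passed 8 were higher, with Ifng at 394 and 364 CPM and no UMI in the reference. Tnf was lower, at 43.8 and 51.4 CPM against 591 and 558 CPM, and Il10 and Il22 had no UMI in the NK/T cells. Of 14 cytokine receptors 10 were higher, among them Il2rb, Il7r and Il18r1, which carry the signals of interleukins 2 and 15, 7 and 18. Of the listed cytokine receptors 2 had no UMI in the reference, with the same limit as for the cytokines.

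Residency and recirculation genes were both present. Over all genes compared with the reference, 5.46% were higher and 5.55% lower. Of 11 residency genes 6 were higher, with Cd69 at 531 and 274 CPM against 95.8 and 107 CPM, and none was lower. Of 11 recirculation genes 3 were higher and 3 lower. S1pr1, the receptor that guides exit from tissues, was measured in 23 cells, with 71.2 and 68.5 CPM against 41.5 and 38.5 CPM. Of 23 lymphocyte transcription factors that passed 14 were higher, and Zeb2 was lower. Of the listed transcription factors 2, and of the residency genes 1, had no UMI in the reference and could pass only through the NK/T cells. Rora had 712 and 659 CPM against 11.5 and 21.1 CPM. Of 12 cell cycle genes 0 were higher and 1 lower, near the shares over all genes, and 8 cells had a UMI of Mki67 or Top2a. Of 18 immediate early and heat shock genes, which respond to tissue dissociation among other stimuli, 2 (Junb and Nr4a1) were higher and 3 lower, and of 12 interferon-stimulated genes 2 were higher and 3 lower.

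Genes of other pancreatic cells had UMIs in the NK/T cells. The stellate cell genes summed to 2950 and 1284 CPM, against 278, 192 and 98.7 CPM in NK/T cells of the 3 i4F mice. The same genes summed to 1169 and 1774 CPM in the macrophage clusters and to 41.7 and 1251 CPM in the B cell clusters of the WT mice. Dcn, which encodes the matrix proteoglycan decorin, gave 530 UMIs in 22 cells, and 506 of these lay in 5 cells. Together, 30 cells with a UMI of a stellate gene held 18.1% of the NK/T UMIs, 8 of them in WT 1 and 22 in WT 2. Pdgfrb, a defining receptor of stellate cells, had 0 and 1 UMI. Endothelial genes summed to 263 and 111 CPM and ductal genes to 98.5 and 377 CPM. With the 30 cells left out, 621 genes were higher and 688 lower than in the reference.

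The WT mice were then compared with each other in their NK/T cells, without a test because there was 1 mouse on each side. Of 2996 genes, 199 (6.64%) were at least 2-fold higher in WT 2 and 133 (4.44%) at least 2-fold higher in WT 1. Of these 332 genes, 90 differed at least 2-fold in the same direction in the macrophage and B cell clusters of the same mice. The share of all 2996 genes that differed so in the reference was not counted. That reference held 104 macrophage cluster cells and 47 B cells in WT 1, and 514 and 111 in WT 2. H2afj, a histone H2A variant gene, had 1 UMI in WT 1 and 84 in WT 2, and its log2 difference was 4.58 in NK/T cells and 3.73 in the reference. Ndfip1, an adaptor of ubiquitin ligases, had 0 and 43 UMIs, with log2 differences of 4.28 and 2.52. Hspb1 (0 and 37 UMIs) and Scand1 (0 and 33 UMIs) likewise differed in the reference, by 4.56 and 3.82. Sostdc1 (0 and 39 UMIs in 7 cells) did not share its difference with the reference, where it was 0.08.

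In the other direction the 5 genes that differed most came from few cells. C3, the central complement component, had 36 UMIs in WT 1 and 0 in WT 2, in 5 cells. Cilp (25 and 0 UMIs) and Adamts4 (20 and 0 UMIs) were found in 2 cells each, and Ptn (88 and 10 UMIs) in 3. Cxcl1 had 70 and 6 UMIs in 6 cells. None of these 5 was 2-fold higher in the reference cells of WT 1, where C3, Cxcl1 and Ptn differed by 1.25, 1.02 and 1.54 on the log2 scale towards WT 2. Among the markers, Gzma had 2315 CPM in WT 1 (exact Poisson 95% interval 2100 to 2547) and 942 CPM in WT 2 (821 to 1075), from 17 and 15 cells. Those intervals were apart, but they cover counting error only and not the spread between cells or mice. Klrb1c also had intervals that did not meet, 166 to 311 CPM against 72.7 to 163 CPM. Cd3e had 224 CPM (161 to 304) and 235 CPM (177 to 306).

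**Figure D3:**
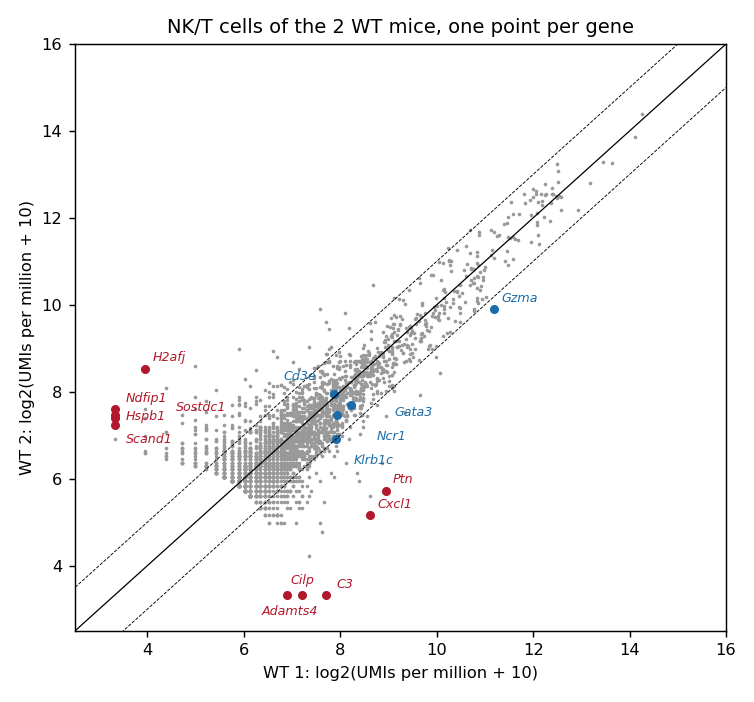
Level of each of 2996 genes in the NK/T cells of WT 1 (x axis) and WT 2 (y axis), as log2 of CPM plus 10, with the line of equality solid and 2-fold differences dashed. Red points are the 10 genes that differed most between the mice, with Scand1 to H2afj at the upper left and Adamts4 to C3 at the bottom, and blue points are the 5 marker genes, which lie near or below the line.

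The share of immune cells that were NK/T also differed between the WT mice. They made up 32.3% of the 223 immune cells of WT 1 (exact interval 26.2 to 38.9) and 16.2% of the 746 immune cells of WT 2 (13.6 to 19.1). In i4F mice the shares were 4.66, 8.62 and 35.1% of 4166, 3969 and 2830 immune cells, a mean of 16.1% ± 16.5 (SD, n = 3) against 24.3% ± 11.4 (n = 2) in WT. The difference of -8.13 percentage points was within the spread between mice (exact two-sided permutation test, p = 0.6), and with 2 against 3 mice the smallest p that can be reached is 0.2. It was -0.0992 points without WT 1 and -17.6 points without i4F 3. Among all cells the order was the opposite. NK/T cells were 1.66% of all cells in WT 1 and 1.91% in WT 2, against 1.98% in i4F 1, 4.16% in i4F 2 and 993 of 7614 cells in i4F 3. The groups did not overlap, and the difference of 4.61 points had the smallest p that 2 against 3 mice allow (exact two-sided permutation test, p = 0.2). Without i4F 3 it was 1.28 points. With cells of fewer than 500 genes left out, the groups overlapped (4.17 points, exact two-sided permutation test, p = 1).

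NK/T cells of i4F mice were compared with those of WT mice gene by gene, with UMIs summed per mouse. The question was whether lymphocytes in the pancreas carried other transcripts when reprogramming factors were induced. Of the listed NK genes 9 of the 19 tested were called lower in i4F mice (2 of these 9 without WT 1 and 1 without i4F 2), no listed T cell gene was called in either direction, and 4 genes of secreted Reg proteins were higher. Of 3574 genes, edgeR's quasi-likelihood test called 10 higher (0.28%) and 44 lower (1.23%) at an adjusted p under 0.05, together 54 genes (1.51%). Each of the 54 separated the mice of the groups without overlap, as did 33.4% of all genes tested. In such sums, fewer cells of a type and less RNA per cell cannot be told apart.

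Of the 25 NK cell genes listed, 19 were tested, and 9 of these were called lower and none higher. A gene could enter the test through the WT mice alone, so that the count over those tested leans towards lower levels in i4F. The levels of the listed genes in the tables, summed with no filter, were 6968 and 4918 CPM in WT and 2303, 1431 and 1716 CPM in i4F mice. Macrophage and neutrophil genes, summed over the same clusters, went the other way. The 10 macrophage genes summed to 10.9 and 68.5 CPM in NK/T cells of WT mice and to 701, 413 and 184 CPM in those of i4F mice, without overlap, and of the 4 that were tested none was called. The neutrophil genes summed to 0 and 4.28 CPM in WT and 314, 23.1 and 7.36 CPM in i4F mice. The part of such RNA in the NK gene differences was not tested. Of the 9 NK genes, Klra8 and Tyrobp kept their call without WT 1 and Ncr1 without i4F 2. Ncr1 had 235 and 167 CPM in WT and 20.6, 3.30 and 19.9 CPM in i4F mice, a log2 difference of -3.46 ± 0.46 (SE; edgeR adjusted p = 0.010). Klrb1c fell from 230 and 111 CPM to 25.8, 9.91 and 24.3 CPM (log2 -2.83, edgeR adjusted p = 0.023). Klre1, Klra4, Klra7, Klra8, Klra9, Tyrobp and Fcer1g were the others, with log2 differences from -3.57 to -1.96. Nkg7 (log2 -1.36, adjusted p = 0.067) and Klrk1 (log2 -2.13, adjusted p = 0.070) did not pass. Eomes, a transcription factor of NK cells, had 120 and 51.4 CPM in WT and 30.9, 23.1 and 22.8 CPM in i4F mice (adjusted p = 0.15).

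Several effector genes were lower as well. Gzma had 2315 and 942 CPM in WT and 258, 39.7 and 150 CPM in i4F mice (log2 -3.37, adjusted p = 0.027). Prf1, with 60 and 45 UMIs in the WT mice (328 CPM in WT 1), had 20.6, 43.0 and 46.4 CPM in i4F mice (log2 -2.54, adjusted p = 0.022). Ifng had 394 and 364 CPM and 67.0, 56.2 and 58.9 CPM (log2 -2.52, adjusted p = 0.0042). Ccl4 had 1511 and 1768 CPM and 252, 95.8 and 160 CPM (log2 -3.20, adjusted p = 0.0051). In the macrophage clusters Ccl4 also lay lower in i4F mice, at 4991, 3061 and 7149 CPM against 9487 and 10905 CPM, a difference that was not tested. In each of these genes, both WT mice lay above all 3 i4F mice. Gzmb was not called, and i4F 1 reached 232 CPM, between the WT values of 328 and 188 CPM. Over the cytotoxic list 2 of 13 genes tested were called lower, and over the chemokine list 3 of 14 (Ccl3, Ccl4 and Ccr2), against 1.23% of all genes tested. Ccl3, Ccr2, Gzma and Prf1 lost their calls without WT 1 and without i4F 2, and Ccl4 kept its call in both settings.

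Of 14 ILC2 genes tested, 3 were called lower, against 1.23% of all genes tested. Here too a gene could enter the test through the WT mice alone, so that the count leans towards lower levels in i4F. The listed genes summed to 3487 and 3287 CPM in WT and 3029, 1246 and 777 CPM in i4F mice. Hs3st1 fell by 4.39, Klrg1 by 3.85 and Csf2 by 4.96 on the log2 scale. Klrg1 was not confined to ILC2-like cells in WT mice, with 35 UMIs there, 18 in NK-like and 6 in T cell-like cells. Gata3 had 290 and 197 CPM in WT and 134, 43.0 and 75.1 CPM in i4F mice, which did not pass (log2 -1.47, adjusted p = 0.14). Il13, at 93.1 and 270 CPM in WT, was 61.8, 0 and 5.89 CPM in i4F mice (adjusted p = 0.11). Calca went the other way in 2 of 3 i4F mice, at 1118, 449 and 25.8 CPM against 137 and 257 CPM, and was not called. None of the 3 gamma-delta T cell genes tested was called. The listed genes of this class summed to 1024 and 1203 CPM in WT and 623, 126 and 325 CPM in i4F mice.

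Of the 21 T cell genes listed, all of which were tested, none was called, which is near the 1.51% called over all genes tested. Their levels summed to 6536 and 6655 CPM in WT and 6986, 7174 and 9281 CPM in i4F mice. Cd3e had 224 and 235 CPM in WT and 196, 258 and 350 CPM in i4F mice (log2 0.38, adjusted p = 0.68). Cd8b1 had 82.1 and 77.0 CPM and 124, 231 and 341 CPM, without overlap but not past the threshold (log2 1.74, adjusted p = 0.16). Lef1, a factor of naive T cells, had 110 and 72.8 CPM and 92.7, 314 and 304 CPM (adjusted p = 0.23). None of the 7 regulatory T cell genes was called, Foxp3 having 10.9 and 12.8 CPM in WT and 61.8, 43.0 and 36.8 CPM in i4F mice (adjusted p = 0.17).

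**Figure D4:**
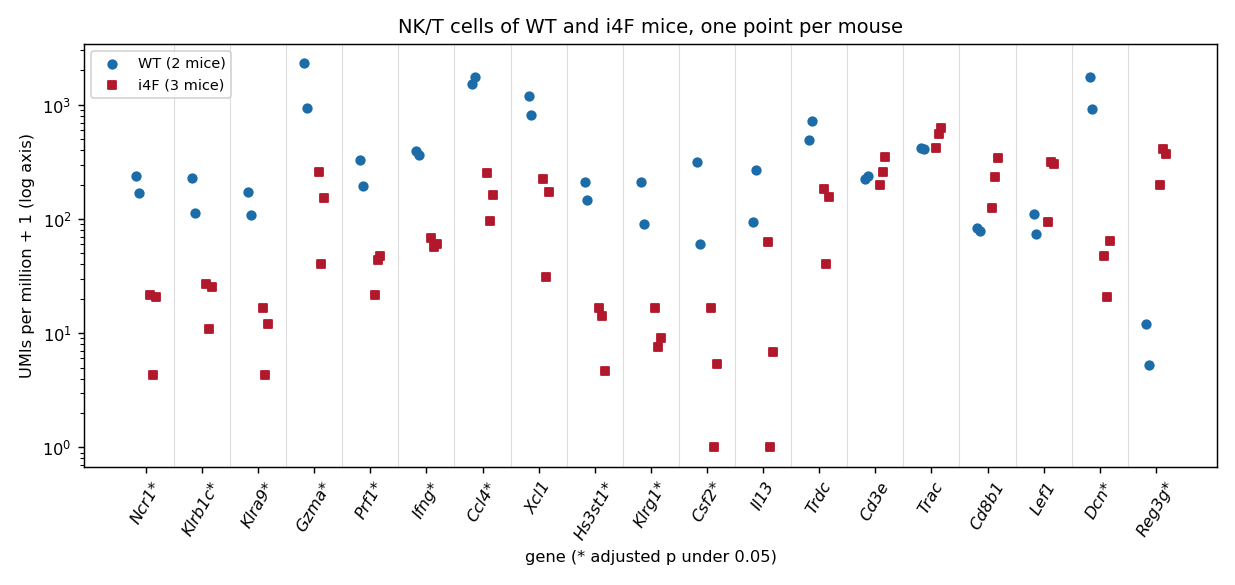
Levels of 19 genes in NK/T cells of 2 WT mice (blue circles) and 3 i4F mice (red squares), in CPM plus 1 on a log axis, with an asterisk for an adjusted p under 0.05 in edgeR. The plotted genes from Ncr1 to Trdc have both WT mice above all i4F mice, Cd3e and Trac lie close together in both groups, and Reg3g lies higher in all i4F mice.

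The 10 genes called higher were Reg2, Reg3a, Reg3b and Reg3g, the ribosomal protein genes Rps29, Rps28, Rpl38 and Rps27rt, the predicted gene Gm10076, and Il1b. Reg3g, an antimicrobial lectin that exocrine cells secrete, had 10.9 and 4.28 CPM in WT and 196, 413 and 373 CPM in i4F mice. The same genes were high in the other immune cells of the i4F mice: Reg2 reached 1051, 4144 and 14662 CPM in NK/T cells, 544, 1625 and 6791 CPM in macrophage clusters and 3842, 4811 and 15657 CPM in B cell clusters. Il1b, which had no UMI in WT NK/T cells, had 129, 59.5 and 42.7 CPM in i4F NK/T cells. In macrophage clusters Il1b had 5755 and 2467 CPM in WT mice and 4719 to 10637 CPM in i4F mice. Near-identical copies of the ribosomal protein and Reg genes make the split among them uncertain. With the library name series as a term, Reg2, Reg3a, Reg3b and Il1b lost their calls. WT 2 alone was in its series here, so that in this fit WT 1 alone stands for the WT mice. These 3 Reg genes also lost their calls without WT 1, WT 2 or i4F 2. Il1b lost its call without WT 1 or WT 2 and with doublets removed (edgeR adjusted p = 0.073). Of the ribosomal and predicted genes, each lost its call in at least 3 of 13 alternatives. Reg3g was called in all 13. The part of free RNA in these differences was not tested.

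Of 5 listed stellate cell genes tested, 1 (Dcn) was called lower, and so was Gsn, a gene of stellate cells and fibroblasts outside that list. Gsn had 1429 and 967 CPM in WT and 15.5, 26.4 and 38.3 CPM in i4F mice (log2 -5.14), and Dcn 1735 and 912 CPM and 46.4, 19.8 and 62.6 CPM (log2 -4.68). In the other immune cells Dcn had 172 and 1303 CPM in WT macrophage clusters and 51.1 to 110 CPM in those of i4F mice, and 32.4 and 955 CPM in WT B cell clusters against at most 144 CPM. Gsn had 446 and 1293 CPM in WT macrophage clusters against 262 to 324 CPM, and 74.1 and 1163 CPM in WT B cell clusters against 48.2 to 94.2 CPM. Both calls ended when the 4 NK/T cells of WT 2 marked as doublets were left out, with adjusted p = 0.088 for Gsn and 0.12 for Dcn. Of the 44 genes called lower, 12 had over 50% of their WT UMIs in the 30 cells with a stellate gene UMI, and 26 had at most 25% there. With those cells left out, 41 of all 54 called genes were still tested, and Gsn and Dcn were not among these. Of the 44 genes called lower, 24 were still called, among them Ncr1 (adjusted p = 0.014), Klrb1c (0.021), Gzma (0.047), Prf1 (0.021) and Ifng (0.0093). Klre1 (0.063) and Klra7 (0.20) of the NK list lost their calls, with log2 differences of -3.29 and -2.14. Fosb and Nr4a1, immediate early genes, were called lower too, 2 of 18 on that list, against 1.23% of all genes tested. In macrophage clusters Fosb had 372 and 712 CPM in WT and 204, 196 and 303 CPM in i4F mice, and Nr4a1 509 and 318 CPM against 233, 223 and 254 CPM.

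The calls depended on single mice. Without WT 1, 1 gene was called higher and 9 lower, and without i4F 2, 1 and 7. Without WT 2 there were 30 and 51, without i4F 1 22 and 79, and without i4F 3 34 and 67. Ncr1 lost its call without WT 1 (adjusted p = 0.064), and Klrb1c and Gzma lost theirs without WT 1 (0.20 and 0.19) and without i4F 2 (0.11 and 0.10), while each kept its sign. Prf1 also lost its call in both of these settings, as did Klre1, Klra4, Klra9, Fcer1g, Klrg1, Csf2, Fosb and Nr4a1. Klra7 kept its call in 4 of 13 alternatives. Of the 54 genes, 4 were called in all 13 alternatives, namely Ccl4, Hs3st1, Ifng and Reg3g.

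The share of cells with UMIs of each class was then read at equal depth, each cell thinned to 500 UMIs with shallower cells left out. There remained 68 and 120 WT cells and 174, 294 and 961 i4F cells. An NK receptor UMI was found in 22.1 and 15.8% of WT cells and in 4.60, 1.02 and 3.12% of i4F cells. The ILC2 genes had a UMI in 14.7 and 15.0% against 8.62, 3.40 and 5.52%. The CD3 complex had a UMI in 47.1 and 48.3% against 43.1, 47.3 and 59.7%. For NK receptor and ILC2 genes both WT mice lay above all i4F mice, and for CD3 the groups overlapped. Cells without a UMI of any of the 3 classes were more frequent in every i4F mouse. They made up 46.6% (i4F 1), 49.0% (i4F 2) and 35.5% (i4F 3), above the 23.5% of WT 1 and the 27.5% of WT 2. Whether the NK/T cluster, drawn separately in each condition, held the same populations in both was not tested. At the same depth, 0 of 157 B cells had a UMI of any of the 3 classes, and 2 of 605 macrophage cluster cells had an NK receptor UMI and 6 an ILC2 UMI. The differences in these shares were not tested.

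**Figure D5:**
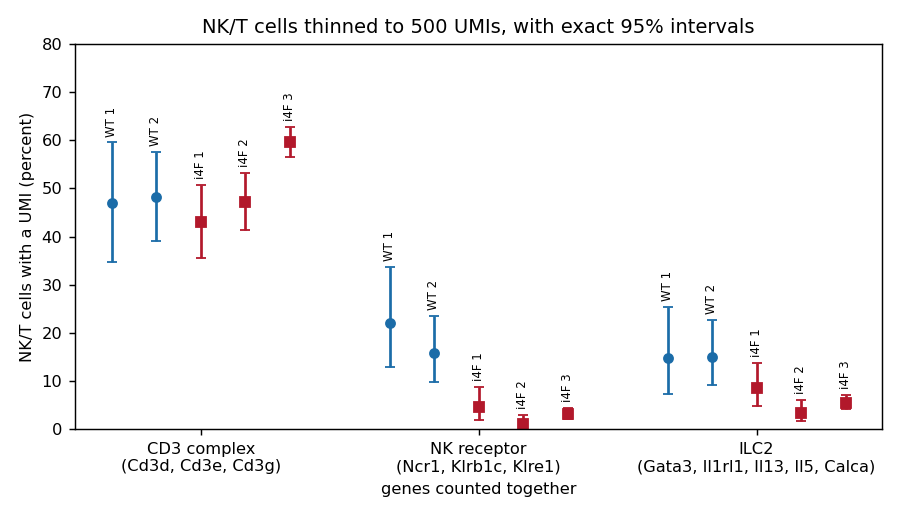
Percent of NK/T cells with a UMI of CD3 complex, NK receptor or ILC2 genes after thinning each cell to 500 UMIs, with 1 point per mouse (blue WT, red i4F) and exact 95% binomial intervals, which cover counting error only. NK receptor shares are 22.1 and 15.8% in WT and at most 4.60% in i4F mice, while the CD3 shares of both groups overlap.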

How the data were processed

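Pancreas cells of 2 WT and 3 i4F mice were analysed. Per the labels and the study's methods, the authors aligned the droplet libraries to mm10 with Cell Ranger, corrected for ambient RNA with SoupX, dropped cells with few genes or much mitochondrial RNA, and clustered each condition separately. Whole-number UMI counts for each gene in each cell were deposited, and whether the ambient correction changed them was not given in the sources used here. The percent of mitochondrial and ribosomal UMIs per cell was deposited by the authors in the metadata, and no cell in the tables has fewer than 150 genes or more than 5.00% mitochondrial UMIs.

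The members and gene lists were chosen with earlier results of these data known. NK/T cells were set against the other WT immune clusters by CPM of UMIs summed per mouse (log2 ratio with 10 CPM added), without a test. i4F and WT were compared with edgeR 4.0.16 (quasi-likelihood, TMM, filterByExpr, Benjamini-Hochberg adjustment over all genes) on UMIs summed per mouse, and shares by an exact permutation test (scipy 1.17.1). DESeq2 1.42.0 was an alternative. Nothing states whether mice shared a litter or day, so p-values measure the spread between these mice. On simulated counts for this comparison (3574 genes) the edgeR step recovered 80 of 100 genes changed by 2 and 88 of 100 changed by 3 on the log2 scale, with 5 false calls. The simulated spread followed the trend over expression level only. Spread particular to a gene, stray RNA and differences in cell mix between mice were absent from it, so these figures do not measure the real comparison. Sub-clusters came from Seurat 5.3.0 (SCTransform, 3000 variable genes, 20 components, resolution 0.8) and were named from marker lists.

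Genes were named by rule: the 5 markers, members of the lists, the 10 highest and 5 lowest against the reference with at least 20 UMIs, up to 5 per direction with the largest change between i4F and WT (and between the WT mice), and the 10 leading genes of each sub-cluster. Other genes called in i4F were named after their values were seen. Scrublet (scanpy 1.11.5) marked 0.046% of the cells of WT 1 and none of i4F 3, so it did not work there, and doublets were kept in the main analysis. It marked 4 NK/T cells of WT 2. Of 24 listed acinar genes, 5 were in the WT table, so acinar RNA could not be followed with the usual genes. Caerulein cells were not used, and a few genes are not reported here. Promoter letters were taken from RefSeq (GRCm38.p6), and all 5 markers matched. Stretches are shown for the 3 markers of NK-like cells.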

Additional observations from a re-analysis of the deposited data

How the results depend on the processing

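Against the other immune cells, 231 genes were lower with B cells alone as the reference. With 1 CPM added in place of 10, 1150 were higher and 1366 lower, and with 50 CPM 222 and 245. In single mice 1017 to 1117 genes were higher and 1031 to 1146 lower, since a call then needs 1 mouse only. Igkc reversed, to a mean log2 ratio of 0.81, with macrophages alone. The share of NK/T cells with a CD3 UMI was 47.9% after thinning to 500 UMIs and 57.5% with at least 2 UMIs required, and that with an ILC2 gene UMI 14.9% and 16.1%. Between the WT mice 149 genes were at least 2-fold apart with 50 CPM added.

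For i4F against WT, DESeq2 called 29 genes higher and 71 lower, no TMM scaling gave 70 lower, no filter on low counts 83 and 164 (where the median log2 difference of all genes was 0.30), and the library name series as a term 18 higher and 33 lower, with 31 of the 54 main calls among these. Among these mice WT 2 alone was in its name series, so that with the series term WT 1 alone stands for the WT mice. Leaving out doublets gave 6 and 27, and leaving out cells with a stellate gene UMI, an alternative chosen after seeing the data, gave 27 lower. With 1 mouse left out, 1 to 34 genes were called higher and 7 to 79 lower, where an arm of 1 mouse is assumed to vary like the other group. With the replicate number as a term (replicate block) 110 were higher and 146 lower, all 54 main calls among them, but the numbers were not shown to pair the mice (correlation of deviations 0.077 for number 1 and -0.063 for number 2). In every setting the main calls that were tested kept their sign, and the causes of these changes were not tested. The share of NK/T cells among immune cells and among all cells kept its direction under each alternative, but its size did not hold, in a design in which p cannot pass 0.05. With cells of at least 500 genes the groups overlapped for all cells (4.17 points, exact permutation test, p = 1), and a logistic fit with the replicate block gave 2.14 points for all cells and -15.2 points for immune cells. With 1 mouse left out the difference ranged from -17.6 to -0.0992 points among immune cells and from 1.28 to 6.81 points among all cells. Over single genes and values under all alternatives, 632 stayed as reported, 61 moved by more than the spread, 87 lost their call, 25 gained one and 1 reversed (Igkc). Those that gained a call in some settings were Nkg7, Klrk1, Gata3, Il13, Calca, Eomes, Cd8b1 and Lef1, the last 2 higher in i4F without the filter and without i4F 1. The comparison with caerulein was not run, since those mice have no NK cluster. With 72 and 121 cells, depth limits single genes: a gene at 3 UMIs lies at 16.4 CPM in WT 1 and 12.8 CPM in WT 2.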
